A study of Mus musculus with 24 samples.

Results

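Imprinted genes are expressed mainly from the copy inherited from 1 parent, and many of them set how much a tissue grows. The 10 imprinted growth control genes described here are H19, Igf2, Kcnq1ot1, Cdkn1c, Dlk1, Meg3, Rian, Mirg, Peg3 and Grb10. They were chosen by name, with earlier results of these data known. All 10 have a row among the 17111 genes of the expression table, and all 10 were among the 16985 genes tested. Expression was measured by bulk RNA sequencing in 24 libraries of mouse muscle stem cells, the resident cells that rebuild skeletal muscle after injury.

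The libraries form 6 groups of 4, made of 2 genotypes and 3 days. The genotypes are L2A-WT, called WT here, and L2A-Pax7CreER, called KO here, in which Lamp2a, the receptor of chaperone-mediated autophagy, is the targeted gene and an inducible Cre is driven by Pax7, a gene of muscle stem cells. No group labelled as carrying the Cre alone was used here, so Cre and loss of Lamp2a cannot be told apart. Day 0 is uninjured muscle, and days 1 and 4 follow an a cardiotoxin injection into the muscle (50 µL at 10 µM), a snake toxin that destroys myofibres. Ages are not given in the sources used here. Whether replicate libraries stand for different animals is not stated, so the p-values describe library-to-library spread, part of which may be technical.

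Imprinted genes lie in clusters in which a differentially methylated control region decides which parental copy is read. In the distal chromosome 7 clusters the maternal copy gives H19 and the cell cycle inhibitor Cdkn1c, and the paternal copy gives the growth factor Igf2 and the long antisense RNA Kcnq1ot1, which silences its neighbours. In the chromosome 12 cluster the paternal copy gives Dlk1, and the maternal copy gives the noncoding RNAs Meg3, Rian and Mirg, which carry small nucleolar RNAs and microRNAs. Peg3, on proximal chromosome 7, is a paternally expressed zinc finger gene, and Grb10, on chromosome 11, encodes an adaptor that dampens signalling from the insulin and IGF receptors. Expression from each parental copy was not measured in these data.

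The table's RNAs are the host transcripts of mature microRNAs, which such libraries do not measure. By position in GENCODE M21 and RefSeq (GRCm38.p6), Mirg spans 14 microRNA hairpins with 26 mature sequences, Rian 3 hairpins with 6 mature sequences and 13 small nucleolar RNAs, and H19 1 hairpin. The sequences below are RefSeq mature microRNAs of 3 hosts, H19 and Rian, which changed in opposite directions, and Mirg, which holds the largest array, 5′ to 3′, with the seed (bases 2 to 8, the part that pairs with targets) in capitals.
miR-675-5p in H19 (chr7:142577112-142577133, minus strand): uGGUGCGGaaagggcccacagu
miR-675-3p in H19 (chr7:142577078-142577099, minus strand): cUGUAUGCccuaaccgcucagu
miR-370-3p in Rian (chr12:109618305-109618326, plus strand): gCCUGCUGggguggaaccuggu
miR-134-5p in Mirg (chr12:109734145-109734166, plus strand): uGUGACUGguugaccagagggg
miR-410-3p in Mirg (chr12:109743764-109743784, plus strand): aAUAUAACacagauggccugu
miR-453 in Mirg (chr12:109735669-109735692, plus strand): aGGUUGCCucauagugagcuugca
miR-496a-5p in Mirg (chr12:109739132-109739152, plus strand): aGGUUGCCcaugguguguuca
The last pair share the seed GGUUGCC, the only seed that 2 of the hosted mature sequences have in common. A host's level is not a measure of these small RNAs.

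The other pair of sequences shown are the RefSeq promoters (GRCm38.p6; 250 bases before to 50 after the start) of Meg3 and Kcnq1ot1, the noncoding RNAs whose fall after injury this text turns on. Capitals mark CG dinucleotides, the sites that DNA methylation uses.
Meg3 (chr12:109540746-109541045, plus strand): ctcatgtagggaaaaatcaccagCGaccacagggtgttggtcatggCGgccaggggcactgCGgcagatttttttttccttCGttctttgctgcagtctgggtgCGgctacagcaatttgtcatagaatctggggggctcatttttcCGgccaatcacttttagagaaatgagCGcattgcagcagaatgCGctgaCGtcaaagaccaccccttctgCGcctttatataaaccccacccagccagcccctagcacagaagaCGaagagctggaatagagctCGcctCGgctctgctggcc
Kcnq1ot1 (chr7:143296498-143296797, minus strand): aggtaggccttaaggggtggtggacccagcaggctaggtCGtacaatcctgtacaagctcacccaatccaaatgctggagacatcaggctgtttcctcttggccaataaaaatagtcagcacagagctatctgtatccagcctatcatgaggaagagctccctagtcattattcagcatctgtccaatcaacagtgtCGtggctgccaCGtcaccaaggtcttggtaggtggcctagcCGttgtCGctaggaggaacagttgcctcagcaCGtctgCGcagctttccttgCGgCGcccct
The Meg3 window holds 13 CG and the Kcnq1ot1 window 9, against a median of 7 over 32851 promoter windows of the same length. TGCCGC, the motif of ZFP57, a zinc finger protein that maintains imprints, was searched on both strands. It occurs once in the Meg3 window and nowhere in the Kcnq1ot1 window, and 11.6% of all windows hold it. Among the 13 windows of the 8 members with an entry, 3 hold it, 1 each of Igf2, Meg3 and Grb10. A match describes the letters only, and methylation was not measured.

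Values are normalised read counts, as deposited: a gene's reads per M reads of a scaled library size, with no correction for gene length, so levels are compared within a gene and not between genes. Depth was 11.58 to 22.47 M counted reads a library, and a floor of 3 counts corresponds to values of 0.145 to 0.32. Lamp2, whose row sums all its isoforms and so does not isolate Lamp2a, had overlapping WT and KO ranges at each day (509 to 870 and 529 to 608 at day 0). Marker sums of the labelled cell type were 2290 to 4130 over the 16 libraries of days 0 and 1 and 1050 to 1217 at day 4. Summed markers of macrophages rose from at most 112 in any library before day 4 to 1009 to 1423 in WT and 897 to 996 in KO at day 4. In bulk samples, fewer cells of a type and less RNA per cell cannot be told apart.

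At day 1 most of these genes fell. In WT, 7 of the 10 fell and 1 rose between day 0 and day 1, where 24.9% of all genes tested fell and 27.7% rose (limma, Benjamini-Hochberg adjusted p under 0.05). The median change of the 10 genes was -1.96 on the log2 scale, against -0.01 over all genes tested. In KO, 7 fell and 2 rose, where 21.5% of all genes fell and 24.2% rose, and their median was -2.68. By day 4 the genes had parted: some returned, some stayed low and some passed their uninjured level. From day 0 to day 4 in WT, 6 were lower (18.9% of all genes) and 3 higher (25.7%). In KO, 4 were lower (18.2%) and 2 higher (22.3%). Between days 1 and 4, 7 rose in WT (27.8% of all genes) and 2 fell (22.6%), and in KO 6 rose (26.2%) and 2 fell (23.4%). The WT comparisons share their libraries with each other, as do those of KO, so their counts are not independent. Because the 10 genes were chosen with earlier results of these data known, their counts and medians beside all genes are descriptions only.

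**Figure D1:**
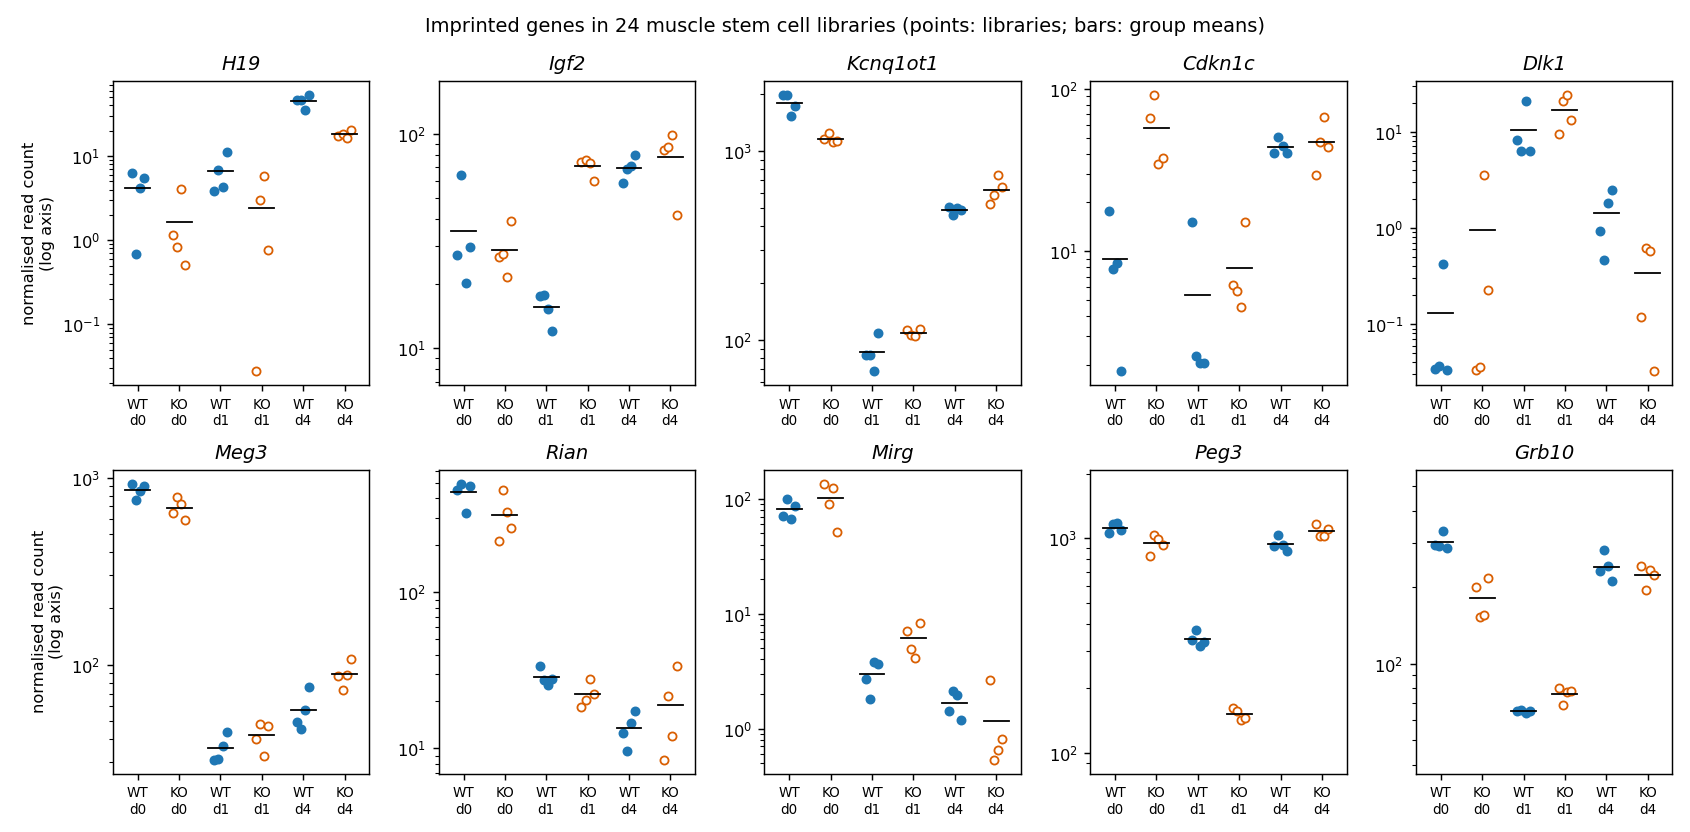
Normalised read count (log axis) of each gene in the 24 libraries by group, with d0, d1 and d4 for days 0, 1 and 4; filled points are WT libraries, open points KO libraries and bars group means. Meg3, Rian and Mirg drop at day 1 and stay low, Kcnq1ot1 drops and comes back in part, Peg3 and Grb10 drop and come back nearly in full, and H19 is highest at day 4, where the WT libraries (35.5 to 53.3) lie above the KO libraries (16.5 to 20.5).

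The maternally expressed noncoding RNAs of chromosome 12 lost nearly all of their signal within a day. Meg3 read 928, 761, 846 and 906 in the WT libraries at day 0 and 30.9, 31.3, 36.5 and 43.8 at day 1. No library of day 1 came near any library of day 0. The mean fell 24.1-fold, a log2 change of -4.57 ± 0.17 (SE; limma, adjusted p = 4.36e-16). In KO, Meg3 fell from 688 ± 83.6 (SD, n = 4) to 41.9 ± 7.43, a change of -4.02 ± 0.17 (adjusted p = 1.36e-14).

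Rian, the host of the small nucleolar RNAs, went from 455, 499, 323 and 480 in WT at day 0 to 33.7, 27.6, 25.6 and 27.9 at day 1. That is a 15.3-fold fall, with wide space between the groups (-3.88 ± 0.30, adjusted p = 1.82e-10). The KO libraries fell from 313 ± 105 to 22.2 ± 3.96 (SD, n = 4), a change of -3.71 ± 0.30. Mirg, the host of the microRNA array shown above, went from 70.8, 99.4, 67.2 and 87.4 to 2.68, 1.81, 3.82 and 3.62 in WT, a 27.2-fold fall (-4.38 ± 0.35, adjusted p = 3.04e-10). KO values of Mirg fell from a range of 51.1 to 136 to a range of 4.15 to 8.26 (-3.79 ± 0.35, adjusted p = 4.95e-09). For none of the 3 genes did the change from day 0 to day 1 differ between genotypes past the threshold: the differences were 0.55 ± 0.24 for Meg3, 0.16 ± 0.43 for Rian and 0.59 ± 0.50 for Mirg (adjusted p = 0.157, 0.869 and 0.515).

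After day 1 these neighbours went separate ways. Meg3 rose from day 1 to day 4, to 49.5, 45.5, 56.9 and 76.3 in WT (0.65 ± 0.17, adjusted p = 0.00307) and to 86.8, 72.9, 88.1 and 108 in KO (1.07 ± 0.17, adjusted p = 1.55e-05). All 8 libraries of day 4 lay above all libraries of their genotype at day 1. Rian fell further in WT, to 12.5, 9.63, 14.5 and 17.4 (-1.05 ± 0.30, adjusted p = 0.00547). Its KO values at day 4, 8.44, 21.7, 12.1 and 33.6, overlapped those of day 1 (-0.38 ± 0.30, adjusted p = 0.307). Without KO day 4 replicate 4 that change passed (-0.71, adjusted p = 0.0429). Mirg fell further in KO, to 2.63, 0.534, 0.649 and 0.811 (-1.77 ± 0.35, adjusted p = 0.000192). Without KO replicate 1, which stood above the other 3, the direction and the call stayed. In WT, the Mirg values of 1.41, 2.11, 1.98 and 1.18 overlapped those of day 1, and the change of -0.56 ± 0.35 was not called (adjusted p = 0.191).

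As a share of the uninjured mean of the same genotype, Meg3 stood at 6.63% in WT and 12.9% in KO at day 4, Rian at 3.07% and 6.06%, and Mirg at 2.06% and 1.15%. The log2 ratio of Meg3 over Rian within a library, on the log2(value + 1) scale, ranged from -0.12 to 0.63 in WT at day 1 and 1.90 to 2.13 at day 4. The ratio of Meg3 over Mirg went from 2.96 to 3.52 up to 3.90 to 5.15. In KO the ratio over Rian went from a range of 0.21 to 1.2 up to 1.65 to 3.22, and that over Mirg from 2.35 to 3.05 up to 4.60 to 5.90. All 4 rises gave p = 0.0286 in a two-sided exact permutation test over libraries, the smallest that 4 against 4 allows, and 0.0286 after Benjamini-Hochberg adjustment over the 4. This test was chosen after the values were seen, so it describes these libraries. Without 1 library the exact p was 0.0571 for Meg3 over Mirg in WT (without WT day 1 replicate 1, 3 or 4, with differences of 1.18, 1.12 and 1.23). For Meg3 over Rian in KO it was 0.0571 without KO day 1 replicate 1, 2 or 4 (1.51, 1.56 and 1.51) and 0.0857 without replicate 3 (1.23). A ratio within a library does not depend on the scaling of that library except through the pseudocount.

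**Figure D2:**
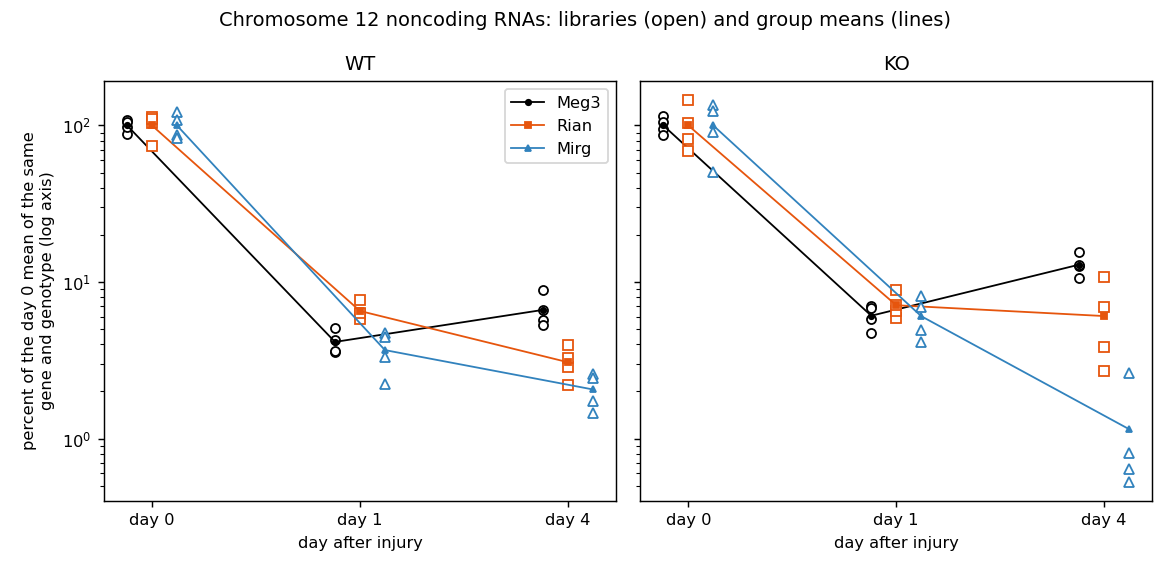
Meg3, Rian and Mirg at days 0, 1 and 4 as a percentage of the day 0 mean of the same gene and genotype (log axis), WT on the left and KO on the right; open symbols are libraries and lines join group means. All 3 fall together to between 3.67% and 7.1% at day 1, after which the Meg3 mean climbs in both genotypes while the Mirg mean goes on falling.

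Dlk1, the paternally expressed member of the same cluster, encodes a transmembrane protein of the Delta-like family. It moved against its noncoding neighbours at day 1. In WT, 3 of the 4 libraries of day 0 had no count and replicate 3 had all 5 counts of the group. The deposited values were 0.0344, 0.0365, 0.423 and 0.0332 at day 0, then 8.12, 6.31, 20.8 and 6.33 at day 1. In KO they went from 0.0332, 0.0358, 3.51 and 0.228 to 9.53, 20.6, 24.1 and 13.1. Groups of days 0 and 1 did not overlap in either genotype, and the rises on the log2(value + 1) scale were 3.18 ± 0.46 and 3.43 ± 0.46 (adjusted p = 3.43e-06 and 1.64e-06). By day 4 Dlk1 had fallen to 0.465 to 2.50 in WT (-2.15 ± 0.46 against day 1, adjusted p = 0.000492), a call that edgeR did not make (adjusted p = 0.0744). In KO it had fallen to 0.0324 to 0.616 (-3.68 ± 0.46, adjusted p = 4.45e-07). The fitted changes of so low a gene depend on the pseudocount. Against day 0 the WT change at day 4 was 1.04 ± 0.46 (adjusted p = 0.0726), and it passed the threshold with a pseudocount of 0.5 (adjusted p = 0.037), and in edgeR (0.0454) and DESeq2 (0.0102). With the main pseudocount of 1 it passed with only the groups compared (0.0222) and with the replicate number as a block (0.0356).

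Kcnq1ot1 shared the fall at day 1 and recovered in part by day 4. Its WT libraries read 1983, 1976, 1538 and 1721 at day 0, 83.4, 83.0, 68.3 and 109 at day 1, and 505, 461, 500 and 485 at day 4. The 3 days did not overlap: the day 1 fall was 21-fold (-4.39 ± 0.12, adjusted p = 2.09e-18) and the rise to day 4 was 5.67-fold (2.51 ± 0.12, adjusted p = 6.06e-14). KO libraries read 1162, 1247, 1119 and 1126 at day 0, 114, 106, 105 and 114 at day 1, and 527, 585, 743 and 642 at day 4. At day 0 every KO library lay below every WT library, and at day 4 every KO library lay above. The genotype difference was -0.63 ± 0.12 at day 0 (adjusted p = 0.00164), 0.36 ± 0.12 at day 1 (0.0655) and 0.34 ± 0.12 at day 4 (0.277), so only the first passed. Without WT day 1 replicate 4 the day 1 difference passed too (0.48, adjusted p = 0.0107), as it did with library weights (0.32, 0.0125). The same weights ended the day 0 call (-0.62, adjusted p = 0.174). The genotype difference moved by 0.99 ± 0.17 from day 0 to day 1 (adjusted p = 0.000394) and by 0.97 ± 0.17 from day 0 to day 4 (0.00161). The change from day 0 to day 4 did not pass with library weights (0.98, adjusted p = 0.0603). At day 4 WT was still 3.70-fold under its own day 0 (-1.88 ± 0.12, adjusted p = 7.67e-12) and KO 1.86-fold (-0.91 ± 0.12, adjusted p = 1.9e-06). Quantile normalisation turned the KO difference to 0.32. Kcnq1ot1 lies antisense to Kcnq1, which was not analysed here, and strand use in counting is not stated, so reads of the gene pair may be mixed. Cdkn1c and Gm44732 are also an antisense pair, as are Meg3 and Gm26906, and Rian overlaps Gm26945 on its own strand, so their reads may be mixed too.

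Cdkn1c, the neighbour that Kcnq1ot1 is known to silence, encodes the cell cycle inhibitor p57. It was 6.44-fold higher in KO than in WT before injury: 66.6, 92.0, 34.5 and 37.5 against 17.8, 7.77, 8.43 and 1.83. The groups did not overlap (2.73 ± 0.53, adjusted p = 0.00149), but with only the 8 libraries of day 0 in the fit the adjusted p was 0.103, and with estimated library weights 0.12. Cdkn1c then fell in KO at day 1, to 6.25, 5.74, 4.56 and 15.3 (-2.73 ± 0.53, adjusted p = 0.000156). WT values of 15.3, 2.27, 2.04 and 2.04 at day 1 overlapped those of day 0 (-0.79 ± 0.53, adjusted p = 0.22). That change passed without WT day 0 replicate 4 (-1.3, adjusted p = 0.0353) or WT day 1 replicate 1 (-1.39, 0.02). At day 4 both genotypes stood near the uninjured KO level, at 40.2, 50.4, 44.3 and 40.1 in WT and 29.3, 47.2, 67.4 and 43.9 in KO. From day 1 to day 4 it rose by 3.24 ± 0.53 in WT and by 2.50 ± 0.53 in KO (adjusted p = 1.88e-05 and 0.000371). The change of the genotype difference from day 0 to day 4, -2.69 ± 0.74, passed at an adjusted p of 0.0403. Leaving out any of 11 of the 16 libraries ended that call (adjusted p = 0.0512 to 0.0817), all but WT day 0 replicates 1 and 3, KO day 0 replicates 3 and 4 and KO day 4 replicate 3. It did not pass in edgeR (0.106), without the mean-variance trend (0.0555) or with library weights (0.244).

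Summed markers of some other cells were also higher in KO at day 0, as Cdkn1c was. Summed markers of fibro-adipogenic progenitors, the connective tissue cells of muscle, were 875 to 1234 in WT and 2048 to 2531 in KO at day 0. All 10 of these markers are in the table, and 3 of 10 were called higher in KO at day 0 (4.82% of all genes) and 0 lower (4.93%). Summed myofibre markers were 3.76 to 8.74 in WT and 26.0 to 65.0 in KO at day 0, and smooth muscle and pericyte markers 199 to 273 and 358 to 794. Their part in the Cdkn1c difference was not tested. Igf1 was also higher in KO at day 0 (77.3 ± 25 in KO and 22.8 ± 5.2 in WT, SD, n = 4), a call lost with only the day 0 libraries (adjusted p = 0.0593).

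H19, which gives rise to miR-675, was low before injury and at day 1 and rose by day 4. WT libraries read 6.23, 0.693, 4.12 and 5.55 at day 0, 3.88, 6.86, 4.34 and 11.3 at day 1, and 45.7, 46.8, 35.5 and 53.3 at day 4. KO libraries read 1.16, 0.823, 4.06 and 0.502, then 0.0278, 3.0, 5.76 and 0.775, then 17.4, 18.5, 16.5 and 20.5. Days 0 and 1 overlapped in both genotypes, while day 4 stood clear of both. From day 0 to day 4 the mean rose 10.9-fold in WT (3.35 ± 0.53, adjusted p = 1.46e-05) and 11.1-fold in KO (3.03 ± 0.53, adjusted p = 5.92e-05). At day 4 every KO library lay below every WT library, with a mean 2.49-fold lower. In the fit of all 24 libraries that difference, -1.26 ± 0.53, was not called (adjusted p = 0.424). With only the day 4 libraries its SE was 0.18 and the adjusted p 0.01, and with a pseudocount of 5 the adjusted p was 0.04. The genotype differences at days 0 and 1 were -0.94 ± 0.53 and -1.42 ± 0.53 (adjusted p = 0.293 and 0.106). The day 1 difference passed without KO day 1 replicate 3 (-1.87, adjusted p = 0.0273) and with library weights (-1.52, 0.00248). At day 4 the summed macrophage markers were also higher in WT, with ranges apart. Of these 10 markers, 1 was called lower in KO (0.524% of all genes) and 9 were not called. The part of macrophages in the H19 difference was not tested.

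Igf2, the fetal growth factor that lies beside H19, differed most between genotypes at day 1. WT libraries read 17.5, 17.7, 15.3 and 12 at day 1 and KO libraries 74.0, 75.9, 73.1 and 60.1. The KO mean was 4.53-fold higher with no overlap (2.12 ± 0.29, adjusted p = 1.51e-05, and 7.73e-05 with only the day 1 libraries). At day 0 the genotypes overlapped, with 27.2, 64.4, 20.1 and 29.5 in WT and 26.6, 27.5, 21.6 and 39.1 in KO. They overlapped again at day 4, at 59.0, 68.2, 70.5 and 79.6 in WT and 84.1, 87.2, 99.1 and 42.0 in KO. So Igf2 fell from day 0 to day 1 in WT (-1.0 ± 0.29, adjusted p = 0.00511) and rose in KO (1.3 ± 0.29, adjusted p = 0.000687). By day 4 it was above day 0 in both genotypes (1.08 ± 0.29 in WT, where the ranges overlapped, and 1.38 ± 0.29 in KO, adjusted p = 0.0037 and 0.000488). The genotype difference changed by 2.30 ± 0.41 from day 0 to day 1 (adjusted p = 0.000463) and by -2.01 ± 0.41 from day 1 to day 4 (0.00368). In GENCODE M21, Igf2 overlaps Igf2os and Gm49394, and neither was analysed here, so part of its reads may be theirs.

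Myofibre markers moved the other way from Igf2 at day 1, with sums of 141 to 199 in WT and 15 to 47.1 in KO. Macrophage markers, at 6.84 to 24.9 and 14.7 to 27.3, overlapped at that day. Summed progenitor markers of connective tissue were again higher in KO, at 1830 to 2548 against 1177 to 1674. Of these 10 markers, 3 were called higher in KO at day 1 and 1 lower (7.12% and 2.08% of all genes), and 6 were not called. The part of these cells in the Igf2 difference was not tested.

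Peg3, which has been used as a marker of progenitor cells in muscle interstitium, was the other gene called between genotypes at day 1, in the opposite direction. WT libraries read 336, 375, 314 and 330 and KO libraries 163, 156, 142 and 146. The KO mean was 2.23-fold lower, and the gap between the groups was far wider than either spread (-1.15 ± 0.09, adjusted p = 2.23e-09). Of the 8 muscle stem cell markers, 4 were also called lower in KO at day 1 and 2 higher (2.08% and 7.12% of all genes). Their median was -0.81, and their part in the Peg3 difference was not tested. Before injury Peg3 was 1056, 1161, 1174 and 1089 in WT and 828, 1041, 997 and 929 in KO, just apart but not called (-0.24 ± 0.09, adjusted p = 0.0867). Without KO day 0 replicate 2 that difference passed (-0.29, adjusted p = 0.0497). At day 4 it was back to 918, 1036, 928 and 871 in WT and 1169, 1026, 1028 and 1105 in KO. Falls at day 1 were 3.31-fold in WT and 6.25-fold in KO, and they differed by -0.91 ± 0.12 on the log2 scale (adjusted p = 2.64e-05). The rise from day 1 to day 4 was larger in KO by 1.36 ± 0.12 (adjusted p = 1.27e-07).

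Grb10 fell and returned like Peg3, but its genotype difference lay at day 0. WT libraries read 293, 292, 335 and 287 at day 0 and KO libraries 201, 153, 156 and 218. The KO mean was 1.65-fold lower (-0.74 ± 0.13, adjusted p = 0.000626, and 0.0901 with only the day 0 libraries). At day 1 the values were 65.4, 65.7, 64.1 and 64.9 in WT and 80.6, 69.1, 77.4 and 78.1 in KO. KO was then the higher genotype, with ranges apart, though the difference of 0.22 ± 0.13 was not called (adjusted p = 0.389). At day 4 they overlapped, at 232, 281, 242 and 211 and at 243, 196, 234 and 224. The genotype difference changed by 0.96 ± 0.18 from day 0 to day 1 (adjusted p = 0.000943).

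In the deposited values, Peg3 and Grb10 nearly recovered their uninjured levels by day 4. In WT they were lower than at day 0 by 1.19-fold and 1.25-fold (-0.26 ± 0.09 and -0.32 ± 0.13, adjusted p = 0.0212 and 0.0446). Both calls were lost when some single libraries were left out. For Peg3 these were WT day 0 replicates 2 and 3 and WT day 4 replicate 4 (adjusted p = 0.0534, 0.0557 and 0.0732), and for Grb10 any of 7 of the 8 libraries, all but WT day 4 replicate 2 (0.0527 to 0.144). Quantile normalisation turned both differences, to 0.85 for Peg3 and 0.74 for Grb10, both called in that direction (limma, adjusted p = 3.51e-08 and 4.8e-05). It moved the median of all genes from 0.23 to -0.02 for WT day 4 against day 0, and from 0.22 to -0.00 for day 4 against day 1. In KO neither gene was called at day 4 against day 0 (0.19 ± 0.09 and 0.31 ± 0.13, adjusted p = 0.0869 and 0.0578), and both were in DESeq2 (0.00269 and 0.00182). With quantile normalisation both were called higher than at day 0 in KO, at 1.24 and 1.16 (limma, adjusted p = 6.37e-11 and 9.24e-08). How far they returned thus depends on the normalisation. The WT calls were lost in DESeq2 (Peg3 0.327 and Grb10 0.231), with library weights (0.0837 and 0.0866) and without the mean-variance trend (0.17 and 0.116). In KO, Peg3 passed without KO day 0 replicate 2 (0.24, adjusted p = 0.047). Grb10 passed there without KO day 0 replicate 1 or 4 or KO day 4 replicate 2 (0.36, 0.40 and 0.37, adjusted p = 0.0409, 0.0174 and 0.0357).

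**Figure D3:**
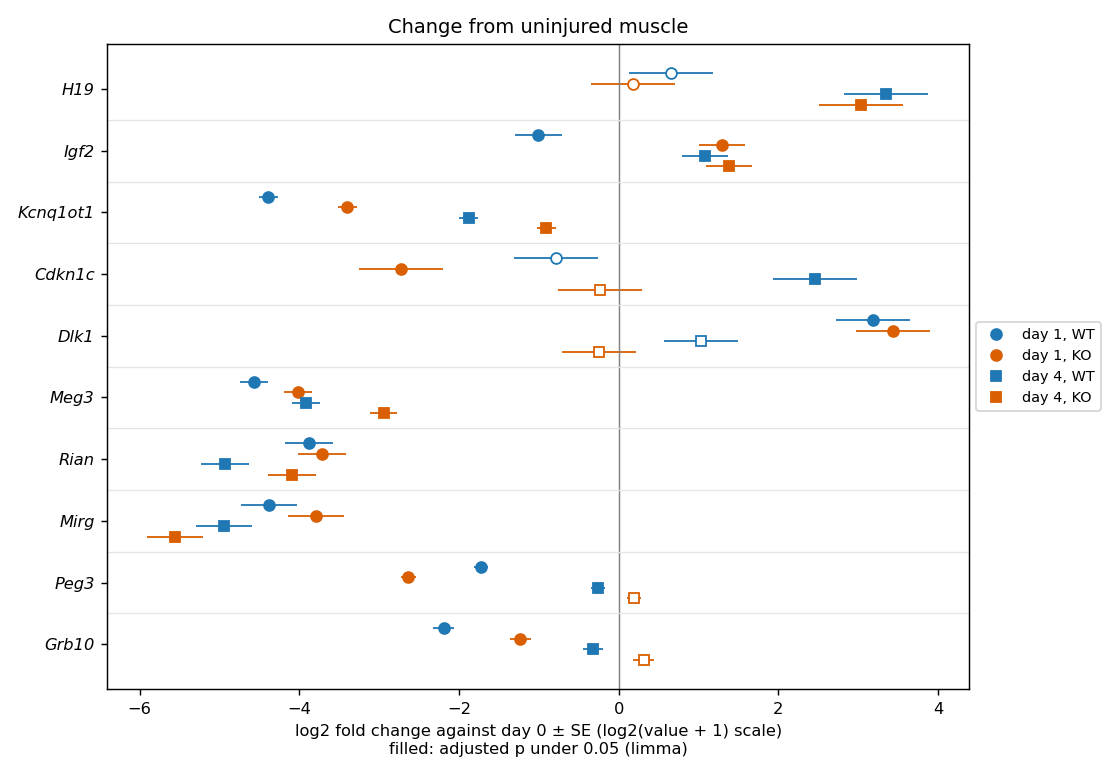
Log2 change from day 0 of each gene at day 1 (circles) and day 4 (squares) in WT (blue) and KO (orange), on the log2(value + 1) scale, with bars for the SE; filled symbols passed an adjusted p of 0.05 in limma. Meg3, Rian and Mirg lie between -2.94 and -5.56 at both days, and Kcnq1ot1, Peg3 and Grb10 lie closer to 0 at day 4 than at day 1.

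Between genotypes, few of these genes passed on any day. At day 0, Cdkn1c was higher in KO, where 4.82% of all genes tested were, and Kcnq1ot1 and Grb10 were lower, where 4.93% were. With only the day 0 libraries all 3 of these calls were lost (Kcnq1ot1 adjusted p = 0.0672). At day 1, Igf2 was higher (7.12% of all genes) and Peg3 lower (2.08%). At day 4 none passed in limma, where 0.53% of all genes were higher and 0.524% lower. At an unadjusted p under 0.05, 4 of the 10 differed at day 4, as did 8.9% of all genes. There edgeR called 0 and DESeq2 called 1, Meg3 (0.65, adjusted p = 0.0224, against 0.64 ± 0.17 and 0.0779 in limma). Leaving out WT day 4 replicate 4 or KO day 4 replicate 2 brought that Meg3 difference past the threshold in limma (0.79 and 0.73, adjusted p = 0.0253 and 0.0477). KO and WT ranges were apart for 4 of the 10 genes at day 0 (6.97% of all genes tested), 4 at day 1 (26.2%) and 2 at day 4 (7.7%). At day 1, Mirg was among them, with a difference of 0.83 ± 0.35 that was not called (adjusted p = 0.181). The change of the genotype difference from day 0 to day 1 was called for 4 genes, where 11.6% of all genes were called. From day 0 to day 4 it was called for 5, Kcnq1ot1, Cdkn1c, Meg3, Peg3 and Grb10 (3.99% of all genes), and from day 1 to day 4 for 2, Igf2 and Peg3 (3.97%). Of the 5, the values for Meg3, Peg3 and Grb10 were 0.97 ± 0.24, 0.45 ± 0.12 and 0.63 ± 0.18 (adjusted p = 0.0234, 0.0419 and 0.0497). The Meg3 call was lost without WT day 4 replicate 1 or 2 (0.91 and 0.87, adjusted p = 0.0534 and 0.0579). The Peg3 call was lost without any of 10 of the 16 libraries (adjusted p = 0.0508 to 0.0986), all but WT day 0 replicate 1, KO day 0 replicates 2 and 3, WT day 4 replicate 2 and KO day 4 replicates 2 and 3. The Grb10 call was lost without any of 12 (0.052 to 0.117), all but KO day 0 replicates 1 and 4, WT day 4 replicate 2 and KO day 4 replicate 2. The count of 5 ran from 1 to 4 when 1 library was left out. The 3 changes share libraries in pairs.

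**Figure D4:**
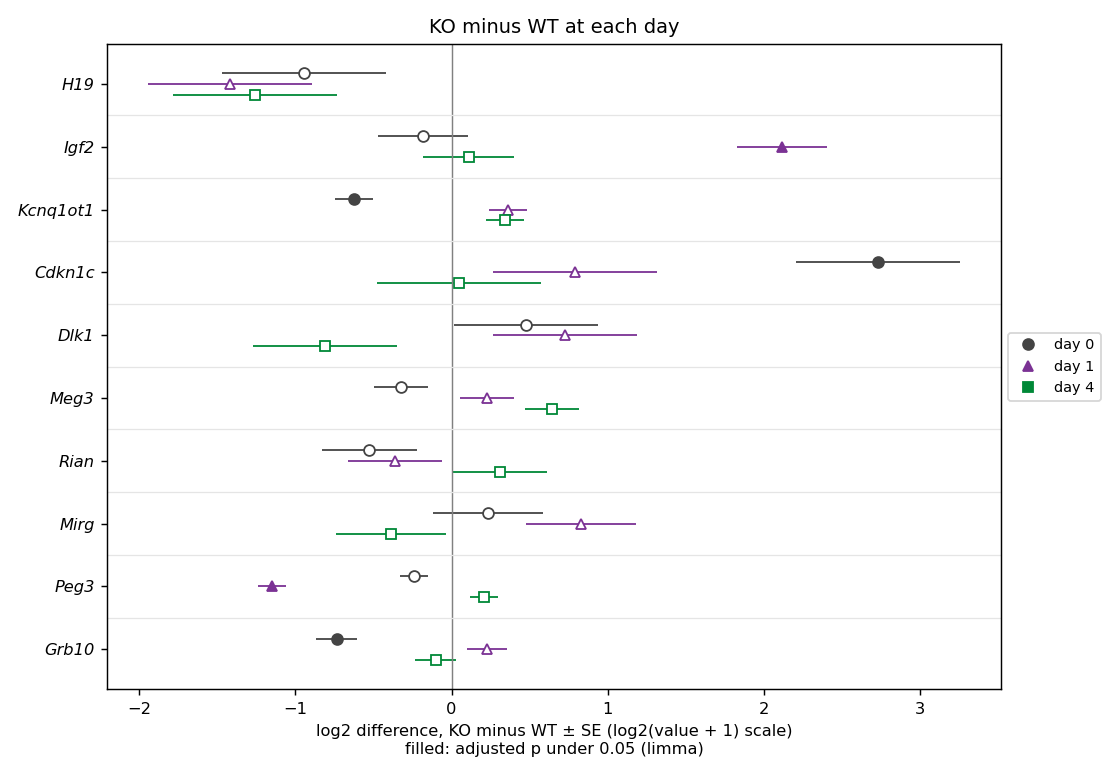
Log2 difference of KO minus WT for each gene at day 0 (circles), day 1 (triangles) and day 4 (squares), on the log2(value + 1) scale, with bars for the SE; filled symbols passed an adjusted p of 0.05 in limma. Cdkn1c at day 0 (2.73) and Igf2 at day 1 (2.12) stand farthest to the right, and no symbol of day 4 is filled.

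The order of the 6 groups differed by locus. Meg3, Rian and Mirg had both day 0 groups on top, overlapping each other and apart from all injured groups. Among the injured groups, neighbours in the order overlapped for Meg3 and Rian, and for Mirg all but KO and WT at day 1 did. Kcnq1ot1 fell into 5 separate levels, and only KO and WT at day 1 overlapped. Peg3 kept both uninjured and both day 4 groups overlapping as neighbours, above WT at day 1 and then KO at day 1. Cdkn1c had KO at day 0 and both day 4 groups together above the remaining 3. Igf2 had WT at day 1 alone at the bottom, and H19 had WT and then KO at day 4 alone at the top.

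Centred on their own means, the most alike pair of the 10 was Peg3 and Grb10, with a mean absolute difference of 0.37 on the log2 scale over the 24 libraries. Rian and Mirg (0.62) and Meg3 and Rian (0.63) followed. H19 and Mirg were the least alike (3.26). Among 8376 other genes, those near to Peg3 included Herc1 (0.28) and Zim1 (0.29), and Zim1 is an imprinted gene of the same domain. Airn, an imprinted antisense RNA on another chromosome, was the gene ranked 2 for Mirg (0.65), after Mpp7 (0.47), which also ranked 1 for Rian (0.44). Nearest to Meg3 was Pdzd2 (0.43), to Kcnq1ot1 Pqlc3 (0.34) and to Grb10 Lnpep (0.20). For Igf2 it was Ranbp10 (0.35), for Cdkn1c Tgfbi (0.62) and for H19 Lrrk1 (0.64). These distances carry the shared day effect and are descriptions.

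Listed neighbours within the clusters moved in both directions. Of the 12 tested genes listed around the distal chromosome 7 clusters, 7 rose and 1 fell from day 0 to day 1 in WT (27.7% and 24.9% of all genes), with a median change of 1.25. The risers included Tnfrsf22 (4.06 ± 0.47), and the muscle troponin genes Tnni2 (3.38 ± 0.47) and Tnnt3 (2.24 ± 0.37), which lie in the same region as H19. Both encode myofibre proteins, and 6 of 7 myofibre markers, Tnnt3 being one of them, rose with them: their sums went from 3.76 to 8.74 at day 0 up to 141 to 199 at day 1. The part of myofibre RNA in these rises was not tested. Around Dlk1 and Meg3, 4 of 10 tested genes rose and 3 fell, against the same 27.7% and 24.9% of all genes, among them Wars, a tRNA synthetase gene (4.96 ± 0.45), and Yy1, a transcription factor gene (-2.20 ± 0.20). Rtl1, a paternally expressed gene of the cluster, was at 4.3 ± 5.6 (SD, n = 4) in WT at day 0 and 0.0463 ± 0.027, close to no counts, at day 4. In the Peg3 domain 2 genes were tested. Zim1 fell at day 1 in WT (-1.79 ± 0.24, adjusted p = 8.5e-07) and was lower in KO at day 1 (-1.23 ± 0.24, adjusted p = 0.00092), as Peg3 was. Usp29, which shares a promoter region with Peg3, rose from day 0 to day 4 in WT (2.05 ± 0.45, adjusted p = 0.00068).

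Igf2 and Grb10 act on IGF and insulin signalling. Of 26 genes of that list tested, 6 rose and 10 fell from day 0 to day 1 in WT, where 27.7% and 24.9% of all genes did, with a median of -0.11. Igf1r, the receptor through which IGF2 signals, fell from 129 ± 25 to 19.2 ± 0.88 and stood at 76.3 ± 6.2 at day 4 (SD, n = 4). Igf2r, an imprinted receptor that clears IGF2, went from 113 ± 25 to 29.1 ± 0.99 and then 107 ± 11 in WT. In KO at day 1 it was higher, at 55.3 ± 9.1 (0.89 ± 0.17, adjusted p = 0.00082). KO exceeded WT in 5 of the 26 at day 1 and fell short in 3 (7.12% and 2.08% of all genes). At day 0 the numbers were 4 and 1 (4.82% and 4.93%), the last being Igfbp5 (-1.01 ± 0.12, adjusted p = 5.1e-06, and 0.0335 with only the day 0 libraries). The 4 higher calls were all lost with only the day 0 libraries: Igf1 (adjusted p = 0.0593), Igfbp6 (0.0982), Igfbp7 (0.241) and Nedd4 (0.274). Igf1, the other ligand, was lower in KO at day 1 (-1.37 ± 0.26, adjusted p = 0.00074), opposite to Igf2.

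Of the 11 Cip/Kip inhibitors and partners that act in the same step as Cdkn1c, 6 rose and 2 fell at day 1 in WT (27.7% and 24.9% of all genes), with a median of 1.49. Cdk4 and Ccnd1, which drive entry into the cycle, rose by 2.92 ± 0.17 and 2.66 ± 0.22. Cdkn1a, the gene of the inhibitor p21, was higher in KO at day 0 (0.89 ± 0.11, adjusted p = 8.3e-06) and at day 1 (0.84 ± 0.11, adjusted p = 7.5e-06). None of the 11 was called between genotypes at day 4 in limma.

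Among 15 tested factors that keep imprints or silence chromatin, 3 rose and 4 fell at day 1 in WT, near the shares of all genes (27.7% and 24.9%), and 7 rose and 3 fell by day 4 (25.7% and 18.9% of all genes). Uhrf1 and Dnmt1, which copy DNA methylation during replication, rose at day 1 by 5.08 ± 0.40 and 2.21 ± 0.34, and Dnmt3a, a de novo methyltransferase gene, fell (-2.48 ± 0.33). Between genotypes at day 1, 2 of the 15 were called higher in KO and 2 lower (7.12% and 2.08% of all genes), and 11 were not called. Trim28 and Dnmt3a were higher (0.70 ± 0.17 and 1.23 ± 0.33), and Zfp445 and Setdb1 lower (-1.32 ± 0.34 and -0.77 ± 0.24).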

How the data were processed

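The 24 libraries were prepared with SMART-Seq v4, per the labels' protocols. FastQC, STAR, RSEM and limma, with build mm39, are named without versions in the submitters' processing notes. The deposited values are a signal: a whole count plus 0.5 over a scaled library size in M reads. Whole counts were recovered for 100% of values (tolerance 0.02). Sequences are from RefSeq, GRCm38.p6.

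The test covered the 16985 genes that reached a value of 1 in 4 or more libraries. A pseudocount of 1 was added before log2, and limma 3.58.1 (R 4.3.3) fitted the 6 groups over the 24 libraries with a mean-variance trend. It gave 12 contrasts, each two-sided and adjusted by Benjamini-Hochberg over all genes tested. Every adjusted p is limma's unless edgeR 4.0.16 or DESeq2 1.42.0, run on the recovered counts, is named. The code was tested on simulated data. The floor of 3 counts covers counting error alone, because PCR copies are not told apart.

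All 10 genes were named by rule. From each list, up to 4 genes per comparison with the largest called changes could be named. The genes most alike were the 3 with the smallest mean difference, for members with a mean of at least 8 and a day change of at least 1. The members and lists were chosen with earlier results of these data known. Alternatives were other filters, pseudocounts, weights, normalisation, tools and samples.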

Additional observations from a re-analysis of the deposited data

Results flagged for a closer look

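In 7 of 60 groups of 4 libraries, 1 library stood apart by Dixon's test, which chance does in about 1 group in 20. Cdkn1c was 15.3 in WT day 1 replicate 1 (others 2.04 to 2.27) and 15.3 in KO day 1 replicate 4 (others 4.56 to 6.25). Dlk1 was 0.423 in WT day 0 replicate 3 (others at most 0.0365), 3.51 in KO day 0 replicate 3 (others at most 0.228) and 20.8 in WT day 1 replicate 3 (others 6.31 to 8.12). Mirg was 2.63 in KO day 4 replicate 1 (others 0.534 to 0.811), and Grb10 was 335 in WT day 0 replicate 3 (others 287 to 293).

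The genotype difference was called as changed between days in 11 of 30 member tests. Of all genes, 11.6% were called from day 0 to day 1, 3.99% from day 0 to day 4 and 3.97% from day 1 to day 4. The 3 changes share libraries, so the 30 tests are not independent. From day 0 to day 1 it changed for Igf2 (2.30), Kcnq1ot1 (0.99), Peg3 (-0.91) and Grb10 (0.96). From day 0 to day 4 it changed for Kcnq1ot1 (0.97), Cdkn1c (-2.69), Meg3 (0.97), Peg3 (0.45) and Grb10 (0.63), and from day 1 to day 4 for Igf2 (-2.01) and Peg3 (1.36), on the log2 scale. The adjusted p-values stand in the results above. With library weights the number of members called from day 0 to day 4 was 0.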

How the results depend on the processing

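Of 65 called member results, 53 kept their direction and call under all alternatives run, 11 lost the call under at least 1 and 3 turned direction. Quantile normalisation turned day 4 minus day 0 for Peg3 (0.85) and Grb10 (0.74) in WT and Kcnq1ot1 (0.32) in KO. Results without a call also turned: Cdkn1c in KO, day 4 minus day 0 (0.019, quantile); Igf2 in KO, day 4 minus day 1 (-0.00050, library weights); Rian in KO, day 4 minus day 1 (0.0069, DESeq2). For the change of the genotype difference these were, from day 0 to day 1, Dlk1 (-2.53 edgeR, -2.75 DESeq2) and Rian (-0.036 DESeq2), and from day 0 to day 4, H19 (0.024 edgeR, 0.043 DESeq2). From day 1 to day 4 they were H19 (-0.26 quantile, -0.44 with a pseudocount of 5) and Kcnq1ot1 (0.14 quantile, 0.042 library weights, 0.0091 edgeR, 0.16 DESeq2). The causes were not tested.

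Leaving out 1 library at a time gave ranges across 0 for uncalled results. Between genotypes these were Igf2 (-0.40 to 0.15) and Dlk1 (-0.033 to 0.68) at day 0, and Igf2 (-0.028 to 0.38), Cdkn1c (-0.14 to 0.25) and Rian (-0.013 to 0.61) at day 4. In KO they were H19 from day 0 to day 1 (-0.27 to 0.64), Cdkn1c (-0.44 to 0.027) and Dlk1 (-0.45 to 0.26) from day 0 to day 4, and Igf2 from day 1 to day 4 (-0.059 to 0.35). For changes of the genotype difference they were H19 (-0.54 to 0.15) and Igf2 (-0.037 to 0.56) from day 0 to day 4, and H19 (-0.30 to 0.61) and Kcnq1ot1 (-0.14 to 0.084) from day 1 to day 4.

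The number of members called between genotypes at day 0 was 3, and 1 with library weights and 0 with only the groups compared. At day 1 it was 2, and 6 with library weights. At day 4 it was 0, and 1 with only the groups compared (H19), with a pseudocount of 5 (H19) or in DESeq2 (Meg3), and 0 to 1 leaving out a library. For the change from day 0 to day 4 it was 5, and 3 with quantile normalisation, 1 without the trend, 0 with library weights, 3 with only the groups compared, 2 in edgeR and 1 to 4 leaving out a library. Over all genes, KO against WT gave 1656 calls at day 0, 1562 at day 1 and 179 at day 4. With only the groups compared the numbers were 68, 3958 and 128. In edgeR they were 1547, 1407 and 85, and in DESeq2 2536, 1749 and 230. Calls over all genes were not counted with library weights, so the member counts with those weights have no share of all genes beside them.

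Same-numbered libraries of different groups had a median r of 0.00364 (range -0.0259 to 0.27, over 60 pairs). Other-numbered libraries had a median r of 8e-04 (range -0.194 to 0.162, over 180 pairs). The medians were close, so the numbers were not taken as pairs, though the highest r was of a same-numbered pair. With the number as a replicate block, the counts of members called were 3, 2 and 0 between genotypes at days 0, 1 and 4, and 4 for the change from day 0 to day 4, Grb10 being lost. Depth limits Dlk1 (5 counts in WT at day 0 and 16 in KO at day 4).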

Other observations

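Of 33 other imprinted genes tested, 9 rose and 12 fell from day 0 to day 1 in WT (27.7% and 24.9% of all genes), and 5 rose and 13 fell by day 4 (25.7% and 18.9%). Airn, the antisense RNA that silences Igf2r, fell from 317 ± 24 (SD, n = 4) to 24.8 ± 3.2 at day 1 and stood at 20.8 ± 9.1 at day 4 in WT, staying low as Rian and Mirg did. Nap1l5, a nucleosome assembly gene, went from 175 ± 29 to 23.6 ± 2.4 and then 1.48 ± 1.0. Plagl1, a zinc finger gene, went from 216 ± 37 to 25.3 ± 1.4 and then 58.7 ± 11. Mest, a paternally expressed gene of growing tissue, rose by 4.52 ± 0.41 (limma, adjusted p = 3.3e-09) from day 0 to day 4 in WT, to 556 ± 67, with a mean of 320 in KO. At day 4 none of the 33, Mest included, was called between genotypes (0.53% of all genes were higher and 0.524% lower). Between genotypes at day 1, 4 of the 33 were higher in KO and none lower, with 7.12% of all genes higher and 2.08% lower. The 4 were Gnas (0.98 ± 0.14), Blcap (1.28 ± 0.41), Airn (0.90 ± 0.27) and Igf2r (0.89 ± 0.17). Strand use in counting is not stated, so reads of Igf2r and the antisense Airn may be mixed.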
